A study of Mus musculus with 6 samples.

Results

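The genes described here encode the machinery of T cell receptor signaling: the CD3 chains and coreceptors at the surface, the kinases and adaptors beneath them, the branches that lead to Ras, NF-kB and NFAT, and the phosphatases and other brakes that hold the signal down. They are 42 genes chosen by name, and a gene was kept if its normalized read count was at least 10 in at least 3 of 6 libraries. All 42 were found among the 14744 genes of the table, and all 42 reached that value in each of the 6 libraries, so no member was lost to the filter. In all, 11296 genes passed the same filter and were tested together.

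T follicular helper (Tfh) cells are the CD4+ lymphocytes from which germinal center B cells receive help, and the study asked how their transcripts differ when the transcription factor Bach2 is deleted in T cells. The sort gate was CD4+B220-CD44+PD-1+CXCR5+, applied to the mesenteric lymph nodes of C57BL/6 mice aged 2 to 3 months, with 10000 to 30000 cells in a sample. The strain is given here as in the sample labels, and the methods of the study name C57BL/6J. The polyadenylated RNA of the sorted cells was amplified as cDNA with a SMARTer low-input kit before sequencing. There were 3 WT libraries, for which the study used Cd4-Cre littermates, and 3 libraries from Bach2fl/flCd4-cre mice. Both groups therefore carry the Cre transgene by that account. It is driven by regulatory elements of *Cd4*, and it acts in T cells from the thymic stage at which CD4 is first made. The gate selects on CD4 protein and against B220, an isoform of the product of *Ptprc*, so it bears on 2 of the members. Nothing in the labels says whether the libraries of a group came from separate mice, and p-values here measure the spread between these samples.

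The deleted gene was read first. *Bach2* was at 233, 222 and 105 normalized read counts in WT replicates 1, 2 and 3, and at 399, 763 and 591 in replicates 1, 2 and 3 of the libraries labelled Bach2-deficient. Every library labelled Bach2-deficient was thus above every WT library, against the label. Its log2 fold change was 1.68 with an SE of 0.37 (limma, adjusted p = 0.141), 1.81 with DESeq2 on 5 libraries (adjusted p = 0.00123) and 2.36 with limma and library weights (adjusted p = 0.000186), and over all settings the adjusted p ran from 0.000186 to 0.501. After removal of a trend in transcript length and GC content it was 1.13 and the groups overlapped. The values are sums over the whole gene, and the antisense gene *Bach2os* overlaps its exons. Which exons the deletion removes is not given in the sources used here, and whether the labels are crossed was not tested. For that reason the group is named by its label throughout.

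The values of each library summed to 7809702, 7387316 and 8135325 normalized read counts in WT replicates 1, 2 and 3 and to 7456435, 7362290 and 7361229 in the libraries labelled Bach2-deficient. WT replicate 1 stood apart, with 11648 genes above 0 where the other libraries had 13111 to 13567. The 42 genes together took 1.51%, 1.84% and 1.98% of the total in WT and 1.83%, 1.69% and 1.80% in the libraries labelled Bach2-deficient. Their share of the RNA overlapped between the groups, and the lowest value was that of WT replicate 1.

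Marker genes of Tfh cells were read next. The gate itself selected on the products of *Cxcr5*, *Pdcd1* and *Cd44*, and no library of other T cells was there for comparison. Their values therefore describe the libraries and do not test the sorted identity. All 8 of 8 Tfh markers were above 0 in every library, among them *Cxcr5* at 1271 to 2207 normalized read counts. Their sum ran from 18335 to 28604 in WT and from 15752 to 22311 in the libraries labelled Bach2-deficient, led by *Sh2d1a*, and these ranges overlap. Single markers stood apart. *Bcl6* was at 342 to 501 in WT and 537 to 818 in the libraries labelled Bach2-deficient, *Cd44* at 1090.1 to 1776 and 2313 to 3856, and *Tox2* at 624 to 1365 and 1759 to 2739, while *Icos* was at 2547 to 4953 in WT and lower, at 1439.9 to 2511, in the libraries labelled Bach2-deficient. These were the 3 of 8 markers that were higher and the 1 that was lower at an unadjusted p under 0.05. The p of *Bcl6* was not under 0.05 without WT replicate 2 (log2 fold change 0.59) or without replicates 1 (0.65) or 2 (0.63) labelled Bach2-deficient. In bulk RNA of this kind, fewer cells of a type and less RNA per cell cannot be told apart.

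In a T cell the receptor itself has no enzyme activity. When peptide and MHC are bound, the kinase Lck, held near the receptor by CD4, phosphorylates the tails of the CD3 and zeta chains, Zap70 docks there and phosphorylates the adaptors Lat and SLP-76, and the complex that forms on them starts calcium entry, Ras and NF-kB signaling. Csk, phosphatases and diacylglycerol kinases hold these steps in check, and in Tfh cells the strength of this signal is known to bear on differentiation and on contact with B cells.

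With limma, 0 of the 42 members passed an adjusted p of 0.05, as did 0.0% of the 11296 genes, and 0 passed the thresholds of the study, an adjusted p under 0.01 and more than 2-fold, again 0.0% of all genes. The adjusted p of the members ran from 0.141 to 0.990. At an unadjusted p under 0.05, 12 members were higher in the libraries labelled Bach2-deficient (28.6% of 42) where 10.1% of all genes were, and 3 were lower (7.14%) where 10.2% of all genes were. The 3 libraries of each group did not overlap for 13 members that were higher (31.0%), against 14.6% of all genes, and for 7 that were lower (16.7%), against 12.2%. The median log2 fold change was 0.19 over the members and 0.08 over all genes tested. With the libraries rescaled by their median log ratio the members higher and lower at an unadjusted p under 0.05 were 8 and 6 (8.86% and 11.9% of all genes), and with quantile normalization 15 and 1 (10.6% and 10.8%).

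These counts moved with single libraries, and so did those of all genes. They were 4 and 1 without replicate 1 labelled Bach2-deficient (4.18% and 5.37% of all genes), 5 and 1 without replicate 2 (4.83% and 6.06%) and 14 and 5 without replicate 3 (13.3% and 14.3%). Without WT replicate 2 they were 7 and 2 (12.2% and 10.4%), and without WT replicate 3 they were 9 and 1 (9.78% and 7.05%). Of the 15 members, *Cd3e*, *Csk*, *Pag1*, *Ppp3cb* and *Stim1* were under 0.05 with each library left out in turn, and the other 10 were not. The share of all genes that were so was not counted, so these members cannot be set against it.

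Some other tests called members. Whole reads were recovered for 5 libraries, all but WT replicate 1, and tested with DESeq2 and edgeR. With DESeq2 2 members were higher at an adjusted p under 0.05, *Nck2* (adjusted p = 0.0328) and *Pag1* (adjusted p = 0.0467), where 1.51% of 11295 genes were higher, and 1 was lower, *Cd3e* (log2 fold change -1.05, adjusted p = 0.00351), where 1.74% were. At the thresholds of the study, an adjusted p under 0.01 and more than 2-fold, DESeq2 called *Cd3e* lower, where 0.505% of genes were, and 0 members higher, where 0.292% were. With edgeR 0 of 11296 genes (0.0%) passed. When limma weighted each library by its estimated quality, 16 members were higher at an adjusted p under 0.05, where 18.5% of all genes were, and 8 were lower, where 18.4% were. *Ppp3ca*, *Prkcq*, *Txk* and *Zap70* were among the higher and *Bcl10*, *Cd3g*, *Lat*, *Lcp2* and *Nck1* among the lower. None of these had an unadjusted p under 0.05 in the main limma fit. The weighted fit gave WT replicate 1 a weight of 0.206 and replicate 2 labelled Bach2-deficient 5.54. Without replicate 3 labelled Bach2-deficient limma called 1 member lower, *Cd3e* (adjusted p = 0.0342), where 2.95% of 11083 genes were lower, and 0 higher, where 1.66% were. Over all settings the adjusted p of *Cd3e* ran from 0.000282 to 0.501, of *Pag1* from 0.000419 to 0.501 and of *Nck2* from 0.000956 to 0.528.

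**Figure D1:**
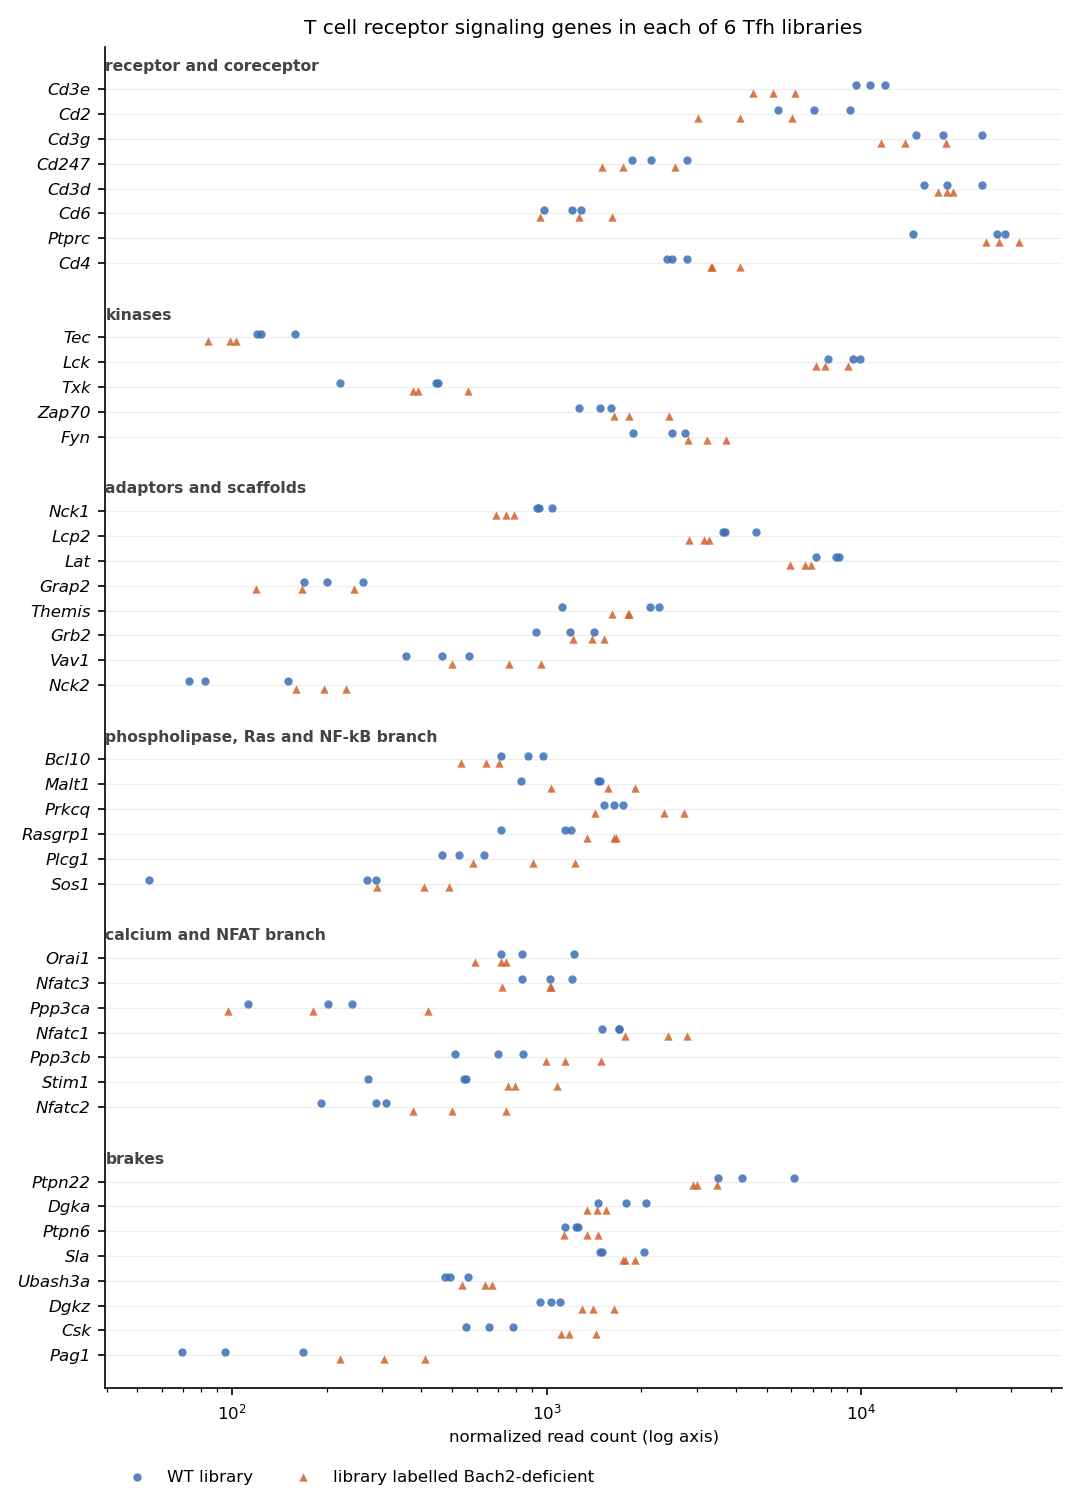
Normalized read counts of the 42 genes in each library, on a log axis, grouped by role; circles are the 3 WT libraries and triangles the 3 libraries labelled Bach2-deficient. The values run from 54.5 for Sos1 in WT replicate 1 to 31593 for Ptprc in replicate 1 labelled Bach2-deficient, and the 2 groups lie apart for Cd3e, Csk and Pag1, among others.

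**Figure D2:**
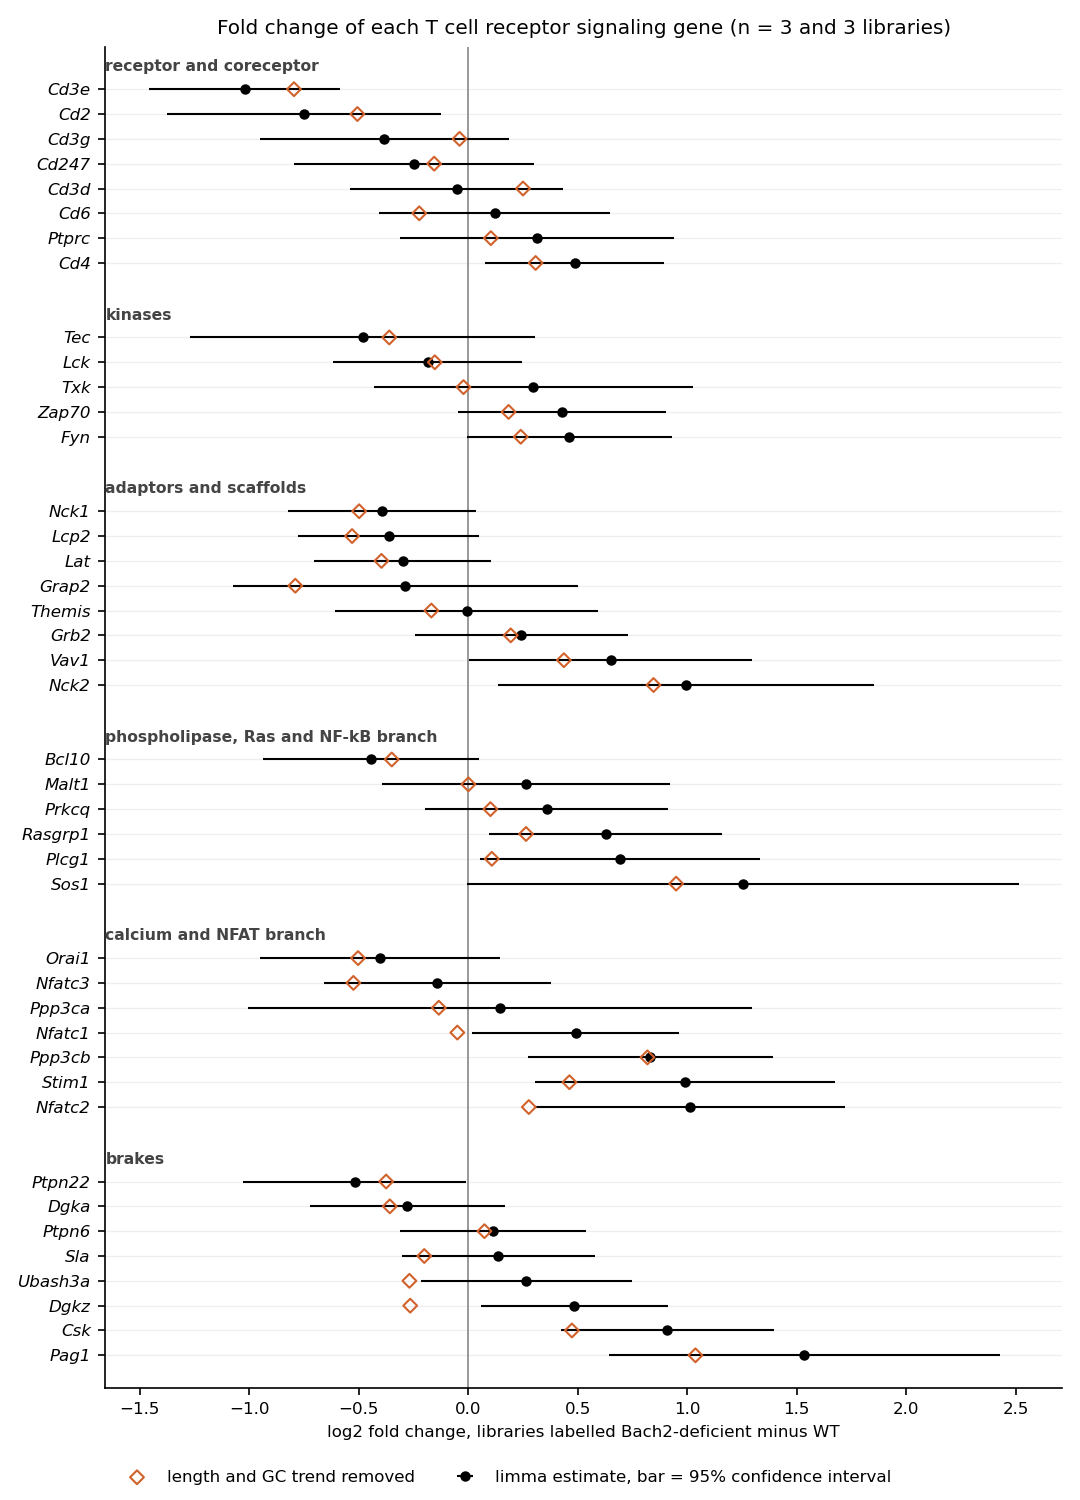
Log2 fold change of each gene, libraries labelled Bach2-deficient minus WT, with 3 libraries in each group; filled circles are limma estimates with their 95% confidence intervals, and open diamonds are estimates after a trend in transcript length and GC content was taken off each library. The interval of Cd3e, from -1.46 to -0.58, lies below 0 and that of Pag1, from 0.64 to 2.43, above it, and several diamonds lie nearer to 0 than the circles.

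The genes of 3 CD3 chains stand side by side on chromosome 9 of GRCm38. *Cd3g* lies from 44969572 to 44980431 on the minus strand, *Cd3d* from 44981786 to 44987339 on the plus strand, and *Cd3e* from 44998740 to 45009627 on the minus strand. A stretch of 1354 bases separates *Cd3g* from *Cd3d*, which are read away from each other, and 11400 bases lie between *Cd3d* and *Cd3e*. Their promoter sequences are shown because these neighbours encode subunits of 1 complex and stood differently between the groups. The sequences are from RefSeq on GRCm38.p6, each on its gene's own strand, 5′ to 3′, up to 250 bases before the start: chr9:44981536-44981785 on the plus strand for *Cd3d*, chr9:45009628-45009861 on the minus strand for *Cd3e*, and chr9:44980432-44980681 on the minus strand for *Cd3g*. They lie in no annotated exon, and the *Cd3e* stretch ends 17 bases before the RefSeq start for that reason. Capitals mark the letters AGGAAG, a core that Ets factors bind, read on either strand.
Cd3d: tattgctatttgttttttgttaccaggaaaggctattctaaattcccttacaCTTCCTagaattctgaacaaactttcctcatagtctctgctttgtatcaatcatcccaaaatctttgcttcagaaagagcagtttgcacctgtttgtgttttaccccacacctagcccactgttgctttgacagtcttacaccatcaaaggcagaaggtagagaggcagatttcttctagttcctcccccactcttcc
Cd3e: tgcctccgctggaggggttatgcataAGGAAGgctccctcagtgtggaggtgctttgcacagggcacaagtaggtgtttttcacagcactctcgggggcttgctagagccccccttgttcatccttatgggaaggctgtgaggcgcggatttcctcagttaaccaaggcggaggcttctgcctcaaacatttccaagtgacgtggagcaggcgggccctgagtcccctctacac
Cd3g: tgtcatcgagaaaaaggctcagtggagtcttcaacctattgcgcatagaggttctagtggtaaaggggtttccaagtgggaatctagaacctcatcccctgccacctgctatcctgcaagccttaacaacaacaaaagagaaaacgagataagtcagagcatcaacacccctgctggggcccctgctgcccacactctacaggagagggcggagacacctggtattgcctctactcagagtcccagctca
The *Cd3d* match begins 198 bases before the start, on the strand opposite to the one shown, the *Cd3e* match begins 224 bases before it, and the *Cd3g* window holds none.

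Promoter windows, 250 bases before a start, were found for 34 of the 42 members, 50 windows in all, since a gene can have several. The letters AGGAAG, on either strand, were in a window of 22 of the 34 members (64.7%), and in 32.3% of all 27025 genes with a window and 33.0% of those tested. TGTGGT, a Runx core, was in 5 of 34 (14.7%), and in 15.9% of all genes and 13.6% of those tested. TGACTCA, which AP-1 factors and Bach2 with its small Maf partners bind, was in 0 of 34, and in 5.16% of all genes and 3.62% of those tested. None of these motifs contains another. A match describes letters only, and where there is none, only these letters in this window are missing.

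Among the receptor and coreceptor genes, *Cd3e* was lower in the libraries labelled Bach2-deficient and *Cd3d*, its partner in the complex, was not set apart. *Cd3e*, which encodes the epsilon chain present in both CD3 dimers, was at 10623, 9648 and 11924 normalized read counts in WT and at 4534, 5238 and 6139.8 in the libraries labelled Bach2-deficient. All 3 libraries labelled Bach2-deficient lay below all 3 WT libraries, with a gap between the groups wider than the range within either. The mean was 10732 ± 1142 in WT (SD, n = 3) and 5304 ± 805 in the others (SD, n = 3), and the log2 fold change was -1.02 with an SE of 0.20 and a 95% interval from -1.46 to -0.58 (limma, unadjusted p = 0.000380, adjusted p = 0.141). *Cd3e* had the smallest unadjusted p of the 42 members, and it was lower with every library left out in turn, by log2 fold changes from -1.13 to -0.91. An unnamed antisense gene, *Gm48719*, overlaps its exons. Whether counting used strand is not given, and if it did not, reads of *Gm48719* cannot be told apart from those of *Cd3e*.

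*Cd3d*, the gene of the delta chain, was at 15854, 18785 and 24100.1 normalized read counts in WT and at 19522, 18739.8 and 17543 in the libraries labelled Bach2-deficient. The latter sat inside the WT range, and the log2 fold change was -0.05 with an SE of 0.22 and a 95% interval from -0.54 to 0.43. *Cd3g*, the gene of the gamma chain, was at 14907, 18222 and 24155 in WT and at 11574, 13721 and 18604 in the libraries labelled Bach2-deficient. The groups overlapped, with 2 of the 3 libraries labelled Bach2-deficient below every WT library, and the log2 fold change was -0.38 with an SE of 0.26 (limma, adjusted p = 0.395). It was -0.20 without WT replicate 3, -0.23 and -0.57 without replicates 1 and 3 labelled Bach2-deficient, -0.040 with the trend in length and GC removed, and -0.67 with library weights (adjusted p = 0.00690, where the adjusted p over all settings ran to 0.948). *Cd247*, which encodes the zeta chain that carries most of the receptor's signaling motifs, was at 2804, 1871 and 2145 in WT and at 1505, 1743 and 2551 in the libraries labelled Bach2-deficient. These overlapped too, at a log2 fold change of -0.25 with an SE of 0.25, and 2 annotated genes, *Gm16565* and *Pou2f1*, share exon sequence with it. Leaving out WT replicate 1 gave -0.088, and leaving out replicates 1 and 3 labelled Bach2-deficient gave -0.088 and -0.47, while without WT replicate 2 it was -0.38.

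A ratio of 2 genes in the same library does not depend on the size factor of that library. The longest transcripts of *Cd3d*, *Cd3e* and *Cd3g* have 1617, 2550 and 2539 bases. The ratio of *Cd3e* to *Cd3d* normalized read counts, chosen after the values were seen, was 0.670, 0.514 and 0.495 in WT and 0.232, 0.279 and 0.350 in the libraries labelled Bach2-deficient. The 2 groups did not overlap. The ratio of *Cd3e* to *Cd3g* was 0.713, 0.529 and 0.494 in WT and 0.392, 0.382 and 0.330 in the libraries labelled Bach2-deficient, also apart, while the ratio of *Cd3g* to *Cd3d* overlapped between the groups, at 0.940 to 1.002 in WT and 0.593 to 1.06 in the libraries labelled Bach2-deficient.

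*Cd4*, the coreceptor that brings Lck to the receptor, lay on the other side. It was at 2500.1, 2407 and 2792 normalized read counts in WT and at 4131, 3341 and 3349 in the libraries labelled Bach2-deficient. All 3 libraries labelled Bach2-deficient were above the WT range, and the log2 fold change was 0.49 with an SE of 0.18 and a 95% interval from 0.08 to 0.90 (limma, unadjusted p = 0.0242, adjusted p = 0.193). Its p was not under 0.05 without WT replicate 2 (log2 fold change 0.44) or without replicate 1 labelled Bach2-deficient (0.38), and not without replicate 2 (0.54). After removal of the trend in length and GC it was 0.31 (unadjusted p = 0.143), with the groups apart. *Cd2*, an adhesion receptor that binds ligands on the antigen-presenting cell, was at 5445, 7100.4 and 9186 in WT and at 3019, 4113 and 6013 in the libraries labelled Bach2-deficient. Its groups overlapped, since replicate 3 labelled Bach2-deficient lay above WT replicate 1, and the log2 fold change was -0.75 with an SE of 0.28 (limma, unadjusted p = 0.0236, adjusted p = 0.192). Without WT replicate 3 it was at -0.56, and without replicates 1 and 2 labelled Bach2-deficient at -0.51 and -0.73, with no p under 0.05. *Ptprc*, the gene of the phosphatase CD45, and *Cd6*, an adhesion receptor, overlapped between the groups, with log2 fold changes of 0.31 and 0.12. The low *Ptprc* value was that of WT replicate 1, at 14598 normalized read counts against 24908 to 31593 in the other 5 libraries, and with all libraries weighted by their estimated quality its log2 fold change was -0.07, and without WT replicate 1 it was 0.0035.

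Per kilobase of the longest transcript, *Cd3d* and *Cd3g* were the most abundant members in both groups. In WT *Cd3d* was at 12109 normalized read counts per kilobase, *Cd3g* at 7521, *Cd2* at 6283 and *Cd3e* at 4208. In the libraries labelled Bach2-deficient *Cd3d* was at 11504 per kilobase, *Cd3g* at 5763 and *Cd3e* at 2080.0, and *Cd3e* ranked 4 of the 42 in WT and 7 in the libraries labelled Bach2-deficient. The lowest member in WT was *Pag1*, at 13.4 per kilobase.

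**Figure D3:**
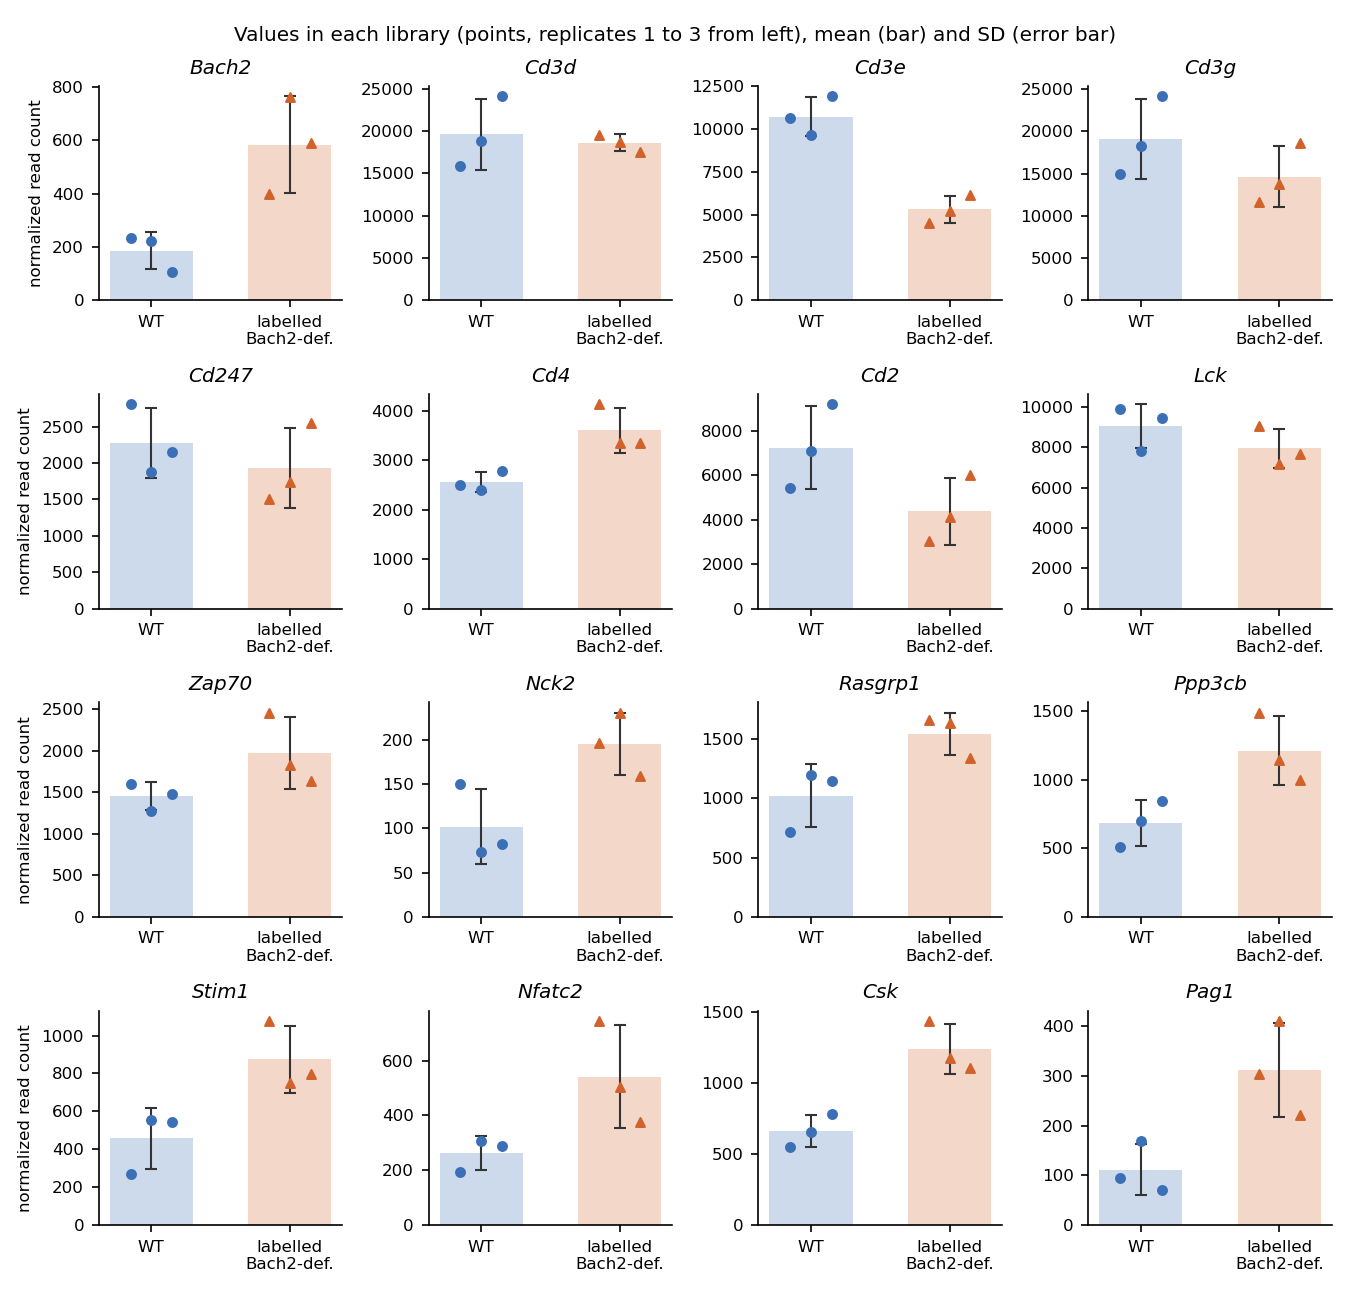
Normalized read counts of Bach2 and 15 members in each library, from 0; points are replicates 1 to 3 from the left, bars the mean and error bars the SD of 3 libraries. Cd3e is at 9648 or more in WT and at 6139.8 or less in the libraries labelled Bach2-deficient, Cd3d overlaps, and Bach2 itself is higher in the libraries that carry its deletion by label.

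In the main limma fit none of the 5 kinases reached an unadjusted p of 0.05, where 10.1% of all genes were higher and 10.2% lower. *Zap70* did without replicate 3 labelled Bach2-deficient (limma, unadjusted p = 0.0283), where 13.3% of all genes were higher. *Fyn* did without WT replicate 3, where 9.78% were. With library weights *Zap70* (limma, adjusted p = 0.0430) and *Txk* were higher at an adjusted p under 0.05, where 18.5% of all genes were. *Lck*, the kinase that starts the cascade, was at 9894, 7846 and 9443 normalized read counts in WT and at 9045, 7171 and 7672 in the libraries labelled Bach2-deficient. The groups overlapped, and the log2 fold change was -0.19 with an SE of 0.19 and a 95% interval from -0.62 to 0.25 (limma, adjusted p = 0.589). *Zap70*, the kinase that docks on the phosphorylated chains, was at 1602, 1272 and 1479.7 in WT and at 2456, 1825 and 1634 in the libraries labelled Bach2-deficient. These did not overlap, although WT replicate 1 and replicate 3 labelled Bach2-deficient differed by little, and the log2 fold change was 0.43 with an SE of 0.21 (limma, unadjusted p = 0.0734). Without replicate 1 labelled Bach2-deficient it was 0.26. *Fyn*, a kinase of the Lck family, was also apart and higher, with a log2 fold change of 0.46 that was 0.30 without WT replicate 1, and *Tec*, a kinase that acts on phospholipase C, was apart and lower, at -0.48, from a low level of 134 ± 21.2 (SD, n = 3) in WT. *Txk*, of the Tec family, overlapped at 0.30, and with library weights it was 0.91 (limma, adjusted p = 0.00966). The largest weight, 5.54, was that of replicate 2 labelled Bach2-deficient. *Txk* was at 561 there and at 392 and 376 in replicates 1 and 3. With the trend in length and GC removed *Zap70*, *Fyn* and *Tec* overlapped too, at 0.18, 0.24 and -0.36.

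Of the adaptors and scaffolds, 2 of 8 were higher at an unadjusted p under 0.05 (10.1% of all genes), *Nck2* and *Vav1*, and 3 were lower with the groups apart (12.2% of all genes), *Nck1*, *Lcp2* and *Lat*. With the trend in length and GC removed *Nck2* and *Vav1* overlapped, at 0.85 and 0.44 with no p under 0.05, and the 3 lower ones stayed apart. *Grap2*, which overlapped before, was then apart and lower too, at -0.79 (12.3% of all genes were apart and lower). *Nck2*, which links the receptor to the actin cytoskeleton, was at 150.4, 72.9 and 82.1 normalized read counts in WT and at 197, 230.5 and 159.6 in the libraries labelled Bach2-deficient. The groups lay apart by a small gap between WT replicate 1 and replicate 3 labelled Bach2-deficient, and the log2 fold change was 0.99 with an SE of 0.39 (limma, unadjusted p = 0.0274, adjusted p = 0.201). Neither *Nck2* nor *Vav1* had a p under 0.05 without WT replicate 2 (log2 fold changes 0.79 and 0.67), WT replicate 3 (0.88 and 0.48), or replicates 1 (0.98 and 0.44) and 2 (0.87 and 0.61) labelled Bach2-deficient. Its close relative *Nck1* had a log2 fold change of -0.39 and *Lcp2*, the gene of SLP-76, of -0.36. *Lat*, the membrane platform for that complex, was at -0.30, with 8007 ± 710.1 in WT and 6498 ± 526 in the libraries labelled Bach2-deficient (SD, n = 3 each). *Vav1*, an exchange factor for Rac, was higher by 0.65 but overlapped, and *Grb2*, which brings Sos1 to Lat, overlapped at 0.24. *Grap2*, which joins SLP-76 to Lat, and *Themis*, which sets signal strength in developing T cells, overlapped at -0.29 and -0.01. Single libraries moved these values: *Grb2* was 0.080 without WT replicate 2, *Grap2* was -0.12 without WT replicate 1 and -0.55 and -0.039 without replicates 1 and 3 labelled Bach2-deficient, and *Themis* was -0.33 and 0.18 without WT replicates 1 and 3.

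In the branch from phospholipase C to Ras and NF-kB, 2 of 6 members were higher at an unadjusted p under 0.05 and 5 of 6 had a positive fold change, against 10.1% and 54.8% of all genes. The longest transcripts of the 6 have a median of 5168 bases, and of all genes of 5000 bases and over 76.4% had a positive fold change. With the trend in length and GC removed 0 of the 6 had a p under 0.05, where 4.89% of all genes were higher and 9.64% lower. *Plcg1* was then at 0.11 and *Rasgrp1* at 0.26, and the median log2 fold change of the 6 was 0.10 in place of 0.49. *Rasgrp1*, the exchange factor that turns diacylglycerol into active Ras, was at 719, 1200.2 and 1148 normalized read counts in WT and at 1658, 1639 and 1343 in the libraries labelled Bach2-deficient. The groups did not overlap, and the log2 fold change was 0.63 with an SE of 0.24 (limma, unadjusted p = 0.0255, adjusted p = 0.196). It was 0.39 without WT replicate 1 (unadjusted p = 0.0885), and 0.57 and 0.58 without replicates 1 and 2 labelled Bach2-deficient, where p was not under 0.05 either. *Plcg1*, the phospholipase that makes diacylglycerol, was higher by 0.69 with groups that overlapped. Its p was not under 0.05 without WT replicates 2 (log2 fold change 0.59) and 3 (0.68) or replicates 1 (0.44) and 2 (0.66) labelled Bach2-deficient. Opposite-strand genes overlap exons of *Plcg1* (*Gm27206* and *Zhx3*) and of *Dgkz*, described below (*Gm9821*). In all, exons of 12 of the 42 members overlap another gene on either strand. *Sos1*, the Ras exchange factor brought by Grb2, was apart and higher, with a log2 fold change of 1.25 and a wide 95% interval, -0.0061 to 2.51. Its WT replicate 1 was at 54.5 normalized read counts and the other WT libraries at 269 and 287, and without that library the log2 fold change was 0.48. *Prkcq* and *Malt1*, of the NF-kB branch, overlapped at 0.36 and 0.26, and *Bcl10*, their partner, was lower with the groups apart, at -0.45, but overlapped with the trend removed, at -0.35. Leaving out replicates 1 and 3 labelled Bach2-deficient gave 0.17 and 0.64 for *Prkcq* and 0.066 and 0.51 for *Malt1*, and leaving out WT replicate 1 gave -0.012 for *Malt1*.

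The calcium and NFAT branch held 4 of the 12 members that were higher. Of its 7 members, these 4 were higher at an unadjusted p under 0.05 (10.1% of all genes), and the same 4 had groups that did not overlap (14.6%). With the trend in length and GC removed, described below, 1 of the 4, *Ppp3cb*, had a p under 0.05, where 4.89% of all genes were higher. *Stim1* and *Nfatc1* then overlapped, and the median log2 fold change of the branch was -0.050 in place of 0.49. *Ppp3cb*, a catalytic subunit of calcineurin, was at 511, 701 and 841 normalized read counts in WT and at 1488, 1144 and 998 in the libraries labelled Bach2-deficient. Its groups lay apart, with a log2 fold change of 0.83 with an SE of 0.25 (limma, unadjusted p = 0.00776, adjusted p = 0.151). *Stim1*, the sensor of the calcium store, was at 272, 554 and 545 in WT and at 1077, 752 and 797 in the libraries labelled Bach2-deficient. All 3 of the latter were above all WT libraries, with a log2 fold change of 0.99 with an SE of 0.31 (limma, unadjusted p = 0.00904, adjusted p = 0.156), or 0.65 without WT replicate 1. *Nfatc2*, a transcription factor that calcineurin activates, was at 192, 308 and 287 in WT and at 745, 503 and 375 in the libraries labelled Bach2-deficient. The groups did not overlap, and the log2 fold change was 1.01 with an SE of 0.32 (limma, unadjusted p = 0.00947, adjusted p = 0.157), or 0.75 with a p not under 0.05 without replicate 1 labelled Bach2-deficient. The other was *Nfatc1*, at 0.49, with a p under 0.05 with all libraries and without replicate 3 labelled Bach2-deficient (log2 fold change 0.67), but with none of the other 5 left out in turn (0.35 to 0.52). *Ppp3ca*, the other catalytic subunit, overlapped at 0.14 with values from 97.2 to 420.1 normalized read counts in the libraries labelled Bach2-deficient, and *Orai1*, the channel that Stim1 opens, and *Nfatc3* overlapped at -0.40 and -0.14. With the trend in length and GC removed *Orai1* and *Nfatc3* were lower with the groups apart, at -0.50 and -0.52 (12.3% of all genes were apart and lower). Without WT replicate 1 *Orai1* was -0.18 and *Ppp3ca* 0.24, without WT replicate 2 *Nfatc3* was -0.014 and *Ppp3ca* 0.37, and without replicates 2 and 3 labelled Bach2-deficient *Ppp3ca* was -0.41 and 0.64. With library weights *Ppp3ca* was 1.27 (limma, adjusted p = 0.0161), where 18.5% of all genes were higher at an adjusted p under 0.05. That value leans on replicate 2 labelled Bach2-deficient, which had *Ppp3ca* at 420.1 and a weight of 5.54. Replicates 1 and 3 had it at 182 and 97.2, with weights of 0.791 and 0.421.

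The brakes held *Csk* and *Pag1*, which came next after *Cd3e* in the order of unadjusted p. *Csk*, the kinase that phosphorylates the inhibitory tyrosine of Lck, was at 553, 656 and 782 normalized read counts in WT and at 1439.5, 1176 and 1109 in the libraries labelled Bach2-deficient. The groups lay well apart, with means of 664 ± 115 (SD, n = 3) and 1241 ± 175 (SD, n = 3) and a log2 fold change of 0.91 with an SE of 0.22 and a 95% interval from 0.42 to 1.39 (limma, unadjusted p = 0.00191, adjusted p = 0.141). With the trend in length and GC removed it was 0.47 (unadjusted p = 0.0437). *Pag1*, the membrane adaptor that docks Csk, was at 94.9, 168 and 69.7 in WT and at 304, 411 and 221 in the libraries labelled Bach2-deficient. These did not overlap either, with a log2 fold change of 1.54 with an SE of 0.40 and a 95% interval from 0.64 to 2.43 (limma, unadjusted p = 0.00328, adjusted p = 0.141), or 1.04 with that trend removed. The ratio of *Csk* to *Lck* normalized read counts, chosen after the values were seen, was 0.0559, 0.0836 and 0.0828 in WT and 0.159, 0.164 and 0.145 in the libraries labelled Bach2-deficient, without overlap.

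Other brakes lay on either side of 0. *Dgkz*, a kinase that removes diacylglycerol, was higher by 0.48 with the groups apart (limma unadjusted p = 0.0303), but at -0.27 and overlapping with the trend in length and GC removed. Its p was not under 0.05 without WT replicates 2 (log2 fold change 0.43) and 3 (0.54) or replicates 1 (0.39) and 2 (0.50) labelled Bach2-deficient, while *Dgka*, of the same family, overlapped at -0.28. *Dgka* was -0.41 without WT replicate 1 and -0.16 without WT replicate 2, and with the trend removed it was apart and lower, at -0.36. *Ptpn22*, a phosphatase that works with Csk on Lck, was lower with the groups apart, at -0.52 (limma unadjusted p = 0.0469), although the gap was between 3498 in WT replicate 1 and 3469 in replicate 1 labelled Bach2-deficient. Without WT replicate 3 it was -0.29, and its p was under 0.05 with WT replicate 1 left out but with none of the other 5. With the trend in length and GC removed *Ptpn22* overlapped, at -0.38 (limma, unadjusted p = 0.124). *Ptpn6*, the gene of SHP-1, *Sla*, an adaptor that lowers receptor levels, and *Ubash3a*, a phosphatase family member, overlapped between 0.11 and 0.26. With single libraries left out *Ptpn6* ran from 0.035 to 0.21 and *Sla* from 0.058 to 0.29.

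The fold changes of the members ran with the length of their transcripts. The longest transcripts of the 25 members with a positive fold change had a median of 4683 bases and those of the 17 with a negative one 2659 bases. Across the 42 members Spearman's rho between length and log2 fold change was 0.507, and across 11268 genes 0.320, with the libraries shared by all points and genes not independent replicates. Among members under 2500 bases 2 of 8 had a positive fold change, and among those of 5000 bases and over 10 of 13 did, against 36.6% and 76.4% of all genes of those lengths. Within single libraries, rho between length and a gene's deviation from its mean was -0.23, -0.05 and -0.26 in WT and 0.33, 0.24 and -0.01 in the libraries labelled Bach2-deficient, so replicate 3 of the latter and WT replicate 2 stood nearest to 0.

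After a smooth surface over transcript length and GC content was fitted to each library and taken off, 3 members were higher at an unadjusted p under 0.05, where 4.89% of all genes were, and 3 were lower, where 9.64% were. These were *Ppp3cb*, with a log2 fold change of 0.82, *Csk*, at 0.47, and *Pag1*, at 1.04, among the higher, and *Cd3e*, at -0.80, *Cd2*, at -0.51, and *Lcp2*, at -0.53, among the lower. The groups did not overlap for 7 members that were higher, against 8.9% of all genes, and for 8 that were lower, against 12.3%. All 7 of the former had also been apart before, and 4 of the latter. The other lower ones were *Dgka*, *Grap2*, *Nfatc3* and *Orai1*. The share of all genes apart both times was not counted, so the members apart both times cannot be set against it. The median log2 fold change of the members was then -0.045 and of all genes -0.037, and rho with length over the members was 0.199. *Nfatc2* was at 0.28, *Stim1* at 0.46, *Dgkz* at -0.27 and *Nfatc1* at -0.05. What made values vary with length in these libraries was not tested.

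**Figure D4:**
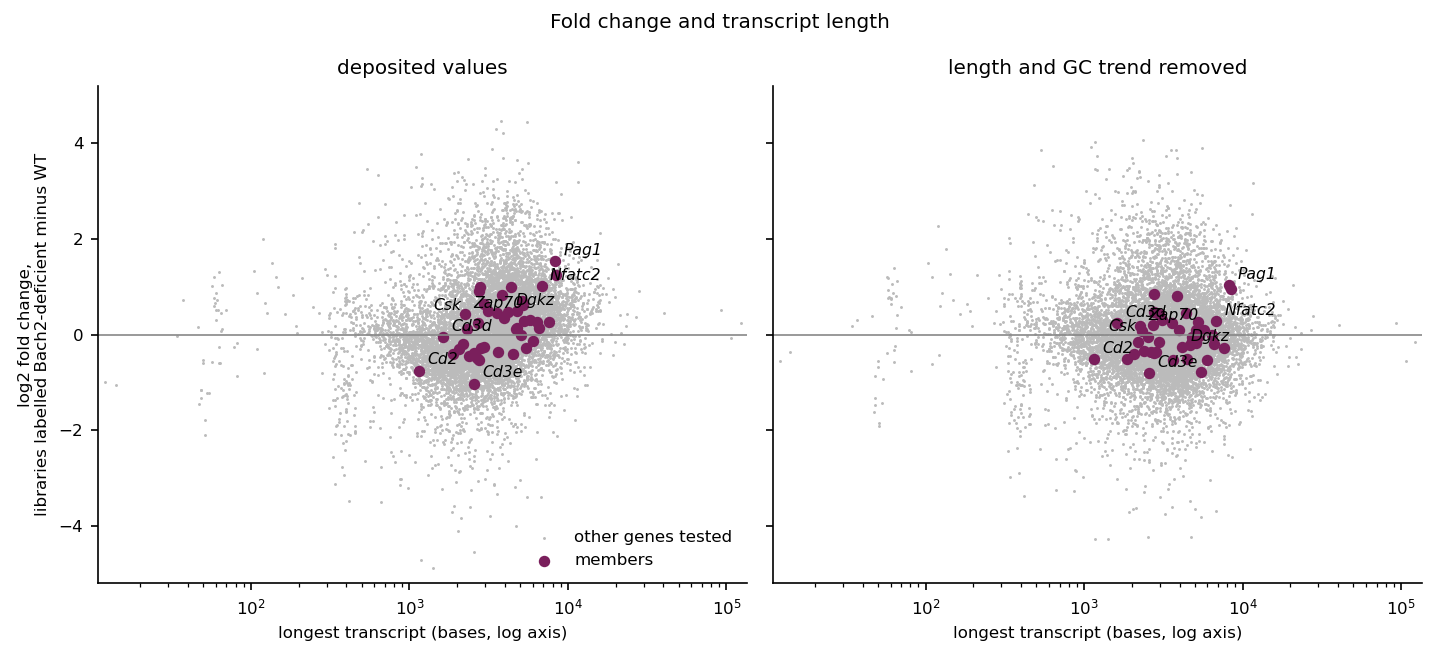
Log2 fold change, libraries labelled Bach2-deficient minus WT, against the length of the longest transcript in bases on a log axis, for the deposited values (left) and after the trend in length and GC content was removed (right); purple points are the 42 members and grey points the other genes tested. On the left long genes lie higher, with a rho of 0.320 over all genes, and on the right the rho is 0.0112.

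At the median the members varied less within groups than the genes tested. The median SD within a group, on the log2 scale, was 0.31 over the members and 0.45 over all genes tested, from 0.091 for *Nck1* to 0.99 for *Sos1*. The members were at 54.5 normalized read counts or more in every library, while a gene was tested if it reached 10 in 3 libraries. The members and the genes tested were not matched for level, so whether the smaller spread is particular to the members was not tested. By library, the median deviation of the members from their own mean was -0.12, -0.09 and 0.01 in WT and 0.24, 0.05 and -0.01 in the libraries labelled Bach2-deficient. Over all genes tested it was -0.058, 0.022 and 0.054 in WT and 0.082, 0.073 and 0.050 in the libraries labelled Bach2-deficient. For the members and for all genes alike, replicate 1 labelled Bach2-deficient was the highest of the 6 and WT replicate 1 the lowest.

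Of the pathway's genes outside the 42, 70 of 73 could be tested, since *Carmil2* was not among the symbols of the table and *Shb* and *Egr3* did not pass the filter. At an unadjusted p under 0.05, 16 were higher (22.9%) and 10 lower (14.3%), where 10.1% and 10.2% of all genes were, and the median log2 fold change was 0.11, against 0.08 over all genes. With the trend in length and GC removed 6 of the 70 were higher and 9 lower, where 4.89% and 9.64% of all genes were, and their median was -0.039, against -0.037 over all genes. Of 9 genes of receptor and costimulation 0 were higher and 2 lower, of 11 kinases and adaptors 4 and 1, of 13 Ras and MAP kinase genes 2 and 1, of 10 calcium genes 3 and 0, of 16 brakes 6 and 4, and of 11 genes that respond to the signal 1 and 2. The 3 higher genes with the smallest unadjusted p were *Mapk3*, the gene of the kinase ERK1, with a log2 fold change of 1.54, *Was*, which drives actin branching, at 1.02, and *Pdk1*, at 0.996. This symbol is that of pyruvate dehydrogenase kinase, which is not the kinase called PDK1 in receptor signaling. Among the lower ones were *Tnfrsf9* and *Tnfrsf4*, which encode the costimulatory receptors 4-1BB and OX40, at -1.75 and -1.09. *Mapk3* was at 116, 186 and 187 normalized read counts in WT and 569, 452 and 389.7 in the libraries labelled Bach2-deficient, and *Tnfrsf9* at 3019.9, 1096 and 1492 and at 343, 600.4 and 632. Neither overlapped.

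Markers of other cells were present, with sums that overlapped between the groups in each list, though in some lists through a single library. For 10 of 12 B cell markers in the table the sum was 240.2, 940.0 and 654 normalized read counts in WT and 504, 472 and 391 in the libraries labelled Bach2-deficient, led by *Cd79b*, with 5 genes at 0 in at least 1 library. The B cell sums overlapped through WT replicate 1 alone, since WT replicates 2 and 3 lay above every library labelled Bach2-deficient. For 8 of 8 CD8 T and NK cell markers it was 6441, 4964 and 3772 in WT and 1691, 4911 and 2452 in the libraries labelled Bach2-deficient, led by *Nkg7*, which activated CD4+ T cells can also express, with *Ncr1* and *Klrd1* at 0 in WT replicate 1. For 9 of 9 myeloid markers, led by *Lyz2*, the sum was 2065, 7886 and 3908 in WT and 2014, 5393 and 1720.3 in the libraries labelled Bach2-deficient. In these last 2 lists only replicate 2 labelled Bach2-deficient lay above any WT library. Of single markers that stood apart, *Nkg7* was at 5536, 2907 and 2633 in WT and lower, at 962, 2417 and 1432, in the libraries labelled Bach2-deficient, and *Ms4a1* was at 35.3, 33.7 and 45.8 and at 2.96, 2.68 and 10.2. *Cd14* and *Ccl21a* were also lower with the groups apart, and *Alas2* and *Cdh5* higher, all at 30.3 normalized read counts or less in each library. The median log2 fold change of the 9 B cell markers tested was 0.94, against the direction of *Ms4a1*. That median includes WT replicate 1, in which *Blnk*, *Btk*, *Cr2* and *Fcer2a* were at 0. It was not taken without that library, so whether *Ms4a1* stands for its list was not tested. At an unadjusted p under 0.05 these lists held 1 B cell marker and 2 CD8 T and NK cell markers that were lower, and 0 markers that were higher. The 5 of 5 erythroid markers summed to 744 in WT replicate 2, to 2867 in replicate 3 labelled Bach2-deficient and to 5.05 to 30.8 in the other 4 libraries. The 4 of 5 gamma delta T cell markers summed to 171 to 694 in all libraries and the 5 of 6 stromal and endothelial ones, led by *Pecam1*, which T cells also express, to 461 to 596. Their part in the values of the members was not tested.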

How the data were processed

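The authors sorted the cells, amplified cDNA and deposited a signal per gene, read counts divided by a size factor of each library. The study's methods name Tophat2 and HTSeq, while the submitters' processing notes list STAR 2.5.2b, DESeq2 1.20.0 and R 3.5.1 with GRCm38 and mm10. How genes were selected for the table, and whether counting used strand, are not given in the sources used here. In every library 100% of the values above 0 lie within 0.01 step of a whole multiple of the library's smallest value, so reads were recovered for 5 libraries, 5045131 to 10987752 each. WT replicate 1, with a step of 1.01, did not enter the count tests, under a rule that takes no step so near a power of 10, although its values are whole multiples of that step too.

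Here log2(value + 1) was tested 2-sided with limma 3.58.1 (R 4.3.3), letting the variance follow a trend. The 11296 genes tested reached 10 in 3 or more libraries, and p-values were adjusted over all of them by Benjamini-Hochberg. Fold changes of low genes are understated on this scale. Recovered reads were tested with edgeR 4.0.16 and DESeq2 1.42.0. Transcript length and GC content come from the longest transcript in GENCODE M21 on GRCm38, which matched 14329 symbols directly and 369 by an older symbol, and the trend in them was fitted with mgcv 1.9.3. The procedures were tested on simulated data. PCR copies were not told apart.

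Every member is accounted for, with values in each library for *Bach2*, *Cd3d*, *Cd3e*, *Cd3g*, *Cd247*, *Cd4*, *Lck*, *Zap70* and the 10 members with the smallest unadjusted p. Other members are given by fold change or range, and pathway genes outside the members by counts, with the 3 higher ones of smallest p and 2 of the lower ones named. Members and lists were chosen with earlier results of these data known. The alternatives were other pseudocounts, filters, scalings and variance models, library weights, a replicate block, removal of the length and GC trend, count tests and leaving out each library; removing the trend without WT replicate 1 was chosen after seeing the data.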

Additional observations from a re-analysis of the deposited data

How the results depend on the processing

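In the 19 other settings 29 of the 42 members kept the sign of their fold change. Members higher and lower at an unadjusted p under 0.05, with the shares of all genes, were 12 and 3 (10.1% and 10.2%) in the main setting, 8 and 6 (8.86% and 11.9%) with libraries rescaled by the median log ratio, 15 and 1 (10.6% and 10.8%) with quantile normalization and 6 and 1 (9.05% and 7.83%) without a variance trend. They were 17 and 8 (24.3% and 22.8%) with library weights, 8 and 5 (9.66% and 9.45%) with DESeq2, 3 and 3 (4.89% and 9.64%) after removal of the trend in length and GC and 4 and 4 (7.44% and 7.46%) with it removed and without WT replicate 1, a setting chosen after seeing the data. Past an adjusted p of 0.05 there were 24 with library weights and 3 with DESeq2. The median log2 fold change of the members was -0.045 with the trend removed and 0.066 with it removed without WT replicate 1. With single libraries left out, members higher ran from 4 to 14, lower from 1 to 5 and past an adjusted p of 0.05 from 0 to 1, and the median from 0.13 to 0.22. The lowest count of higher members, 4, came without replicate 1 labelled Bach2-deficient, where 4.18% of all genes were higher, and 5 and 7 came without replicate 2 labelled Bach2-deficient and without WT replicate 2. The correlations of deviations between libraries of the same number were -0.0689, 0.116 and -0.0386. These values show no pairing by number, but with so few libraries they cannot exclude one, and the labels do not speak of it. With a replicate block 10 members were higher and 2 lower (9.0% and 9.15% of all genes), 0 passed an adjusted p of 0.05, and the median was 0.19. Signs turned with quantile normalization for *Cd3d* (0.049) and *Themis* (0.13), with library weights for *Cd6* (-0.15), *Ptprc* (-0.072) and *Sla* (-0.031), and with DESeq2 for *Ptprc* (-0.021) and *Malt1* (-0.000789). With the trend removed they turned for *Cd3d* (0.25), *Cd6* (-0.22), *Txk* (-0.022), *Ppp3ca* (-0.13), *Nfatc1* (-0.050), *Dgkz* (-0.27), *Sla* (-0.20) and *Ubash3a* (-0.27), and without WT replicate 1 as well for *Cd3d* (0.18), *Cd247* (0.093), *Dgkz* (-0.14), *Sla* (-0.082) and *Ubash3a* (-0.13). With single libraries left out, *Cd3d* ran from -0.20 to 0.11, *Cd6* from -0.064 to 0.32, *Txk* from -0.042 to 0.47, *Themis* from -0.33 to 0.18, *Malt1* from -0.012 to 0.51, *Ppp3ca* from -0.41 to 0.64 and *Nfatc3* from -0.28 to 0.029. The cause of these turns was not tested.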
